A study of Homo sapiens with 8 samples.

Results

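The genes described are 31 immediate early and AP-1 genes, chosen by symbol from a table of 33221 genes. All 31 had a row, and all 31 were among the 22727 genes that passed a filter on low counts. They were taken in 6 classes: 9 AP-1 genes, 3 EGR genes, 4 KLF genes, 3 NR4A genes, 5 feedback genes and 7 other early genes. RNA was measured by poly(A) RNA-seq in 8 libraries of prostate carcinoma cell lines, 2 in each of 4 groups. PC3 EphA2 KO (KO) cells were infected with CRISPR/Cas9 lentivirus carrying a guide to EphA2, and PC3 control cells with lentivirus carrying a non-targeting guide; both were kept for 72 h. DU145 EphA2 OE (OE) cells were transfected with an EphA2 expression plasmid and DU145 control cells with a control plasmid; both were kept for 48 h, and both carry the wild-type genotype label. No label describes a selected clone, so the KO libraries are taken as those of an infected population, and the promoter that drives the plasmid is not given in the sources used here. Ephrin-A ligands on neighbouring cells activate EphA2, which is a receptor tyrosine kinase, and the series title names an EphA2-CDH1 axis in cell migration.

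Total counts ran from 57571919 to 60951530 per library. EPHA2 had 41.7 and 37.7 FPKM (fragments adjusted for transcript length and library size) in the KO libraries, against 55.1 and 55.6 FPKM in the PC3 controls, and 69.3 and 81.0 FPKM in the OE libraries, against 58.8 and 58.9 FPKM in the DU145 controls. The libraries of each pair of groups did not overlap, but in edgeR's quasi-likelihood test EPHA2 passed in neither line (adjusted p = 0.415 in PC3 and 0.458 in DU145). DESeq2 called it lower in the KO (adjusted p = 0.015) but not higher in the OE (0.224), and called the difference of the KO and OE responses (0.000743). The 5 epithelial markers KRT8, KRT18, KRT19, EPCAM and CDH1 summed to 329 to 422 FPKM, and fibroblast, endothelial and immune markers each summed to under 1 FPKM in every library. PC3 is known to lack CTNNA1, yet the libraries labelled PC3 held 36.5 to 45.8 FPKM of it. The line names below are therefore those of the labels. The control libraries were assigned to the lines by a reading of column names. The basal keratins group each control pair with its line as read: KRT5 and KRT6A were at 0 in both KO libraries and both PC3 controls, while in the OE libraries KRT5 was at 0.838 and 0.899 FPKM and KRT6A at 1.23 and 1.09 FPKM, and in the DU145 controls KRT5 was at 0.625 and 0.805 FPKM and KRT6A at 1.2 and 1.29 FPKM. Values with both control pairs exchanged, an alternative that these keratins go against, are given where they differ in sign or by over 1.5 times. This covers only members with an unadjusted p under 0.05 or the smallest p of their class, and the member medians. For IER3 and for genes of the further lists no such value is given, so its absence there does not show stability.

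Immediate early genes are transcribed within minutes of a growth factor, stress or adhesion signal, by factors that are already in the cell, such as SRF with its ternary complex partners and CREB. Many of their products are transcription factors: proteins of the FOS and JUN families pair through leucine zippers as AP-1, which binds TRE sites (also called TPA response elements), and the EGR, KLF and NR4A families bind sites of their own. Others close the loop. DUSP1 dephosphorylates MAP kinases, and the ZFP36 family binds AU-rich elements and speeds the decay of early mRNAs. In epithelial cancers FOSL1 is the AP-1 subunit most often linked to invasion. With 48 h or 72 h between treatment and harvest, the libraries describe a late state and not the first wave of a response.

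The promoters of the 4 members with the smallest p in the KO, the OE or the difference of both responses are shown, since the results below turn on these genes. Each runs 5′ to 3′ on the strand of its gene, from 250 bases before to 50 bases after the RefSeq start (GRCh38.p14). DUSP1 is at chr5:172771146-172771445 (minus strand), KLF4 at chr9:107489720-107490019 (minus), ZFP36 at chr19:39406597-39406896 (plus) and MAFF at chr22:38201744-38202043 (plus). Capitals mark matches, on either strand, to the full CRE TGACGTCA bound by CREB and ATF proteins, its core TGACG, the TRE TGANTCA, the CArG box of SRF, the EGR site GCGNGGGCG and the TATA motif TATAAA. A full CRE holds the core on both strands.
DUSP1: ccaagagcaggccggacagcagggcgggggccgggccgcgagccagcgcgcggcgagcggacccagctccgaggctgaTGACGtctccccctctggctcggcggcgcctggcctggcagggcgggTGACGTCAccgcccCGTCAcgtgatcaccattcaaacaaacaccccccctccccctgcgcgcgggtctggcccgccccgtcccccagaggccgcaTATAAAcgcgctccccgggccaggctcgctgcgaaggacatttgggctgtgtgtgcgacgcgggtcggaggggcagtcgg
KLF4: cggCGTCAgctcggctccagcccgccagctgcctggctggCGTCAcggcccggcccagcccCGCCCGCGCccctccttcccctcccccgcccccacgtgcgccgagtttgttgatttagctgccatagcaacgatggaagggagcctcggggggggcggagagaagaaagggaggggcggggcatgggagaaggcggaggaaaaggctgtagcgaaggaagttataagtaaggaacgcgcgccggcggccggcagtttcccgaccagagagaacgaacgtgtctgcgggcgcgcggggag
ZFP36: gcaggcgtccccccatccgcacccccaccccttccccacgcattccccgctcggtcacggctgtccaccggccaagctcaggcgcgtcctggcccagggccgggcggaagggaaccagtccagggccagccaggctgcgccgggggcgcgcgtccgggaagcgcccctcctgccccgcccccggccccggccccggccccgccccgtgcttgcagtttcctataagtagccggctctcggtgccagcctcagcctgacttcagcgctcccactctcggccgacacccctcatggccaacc
MAFF: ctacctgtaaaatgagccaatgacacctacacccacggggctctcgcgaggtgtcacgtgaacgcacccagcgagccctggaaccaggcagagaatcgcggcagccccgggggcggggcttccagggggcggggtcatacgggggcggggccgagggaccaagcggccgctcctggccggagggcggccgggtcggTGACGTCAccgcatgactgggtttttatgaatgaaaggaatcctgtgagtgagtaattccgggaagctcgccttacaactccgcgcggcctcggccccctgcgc

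The DUSP1 promoter held a full CRE whose first base was at position -125, further cores at -172 and -111, and a TATA motif at -30. MAFF held a full CRE at -54, and KLF4 held cores at -247 and -210 with an EGR site at -189. ZFP36 held none of these letters in the window. RefSeq promoters were matched for 24 of the 31 members. A full CRE was found in 3 of these 24 (12.5%: DUSP1, JUND and MAFF), against 1.85% of 35116 promoters of the same length, and the core in 14 of 24 (58.3%) against 24.6%. A CArG box was found in EGR1 and SRF (8.33% of members, 1.29% of all promoters), an EGR site in 5 members (20.8% against 9.43%), a TATA motif in 6 (25% against 11.5%) and a TRE in FOSL2 alone (4.17% against 7.71%). The members were counted with a single promoter for each symbol. The 35116 promoters were not reduced in that way and include those of the members, so the shares are not fully alike. These are counts of letters and were not tested as binding.

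Levels of the 31 genes, in FPKM and so per length of transcript, spread widely. The mean over 8 libraries was under 1 FPKM for 6 members, 1 to 10 for 9, 10 to 50 for 14 and over 50 for 2. IER3, a feedback gene that modulates survival and ERK signalling, led with a mean of 191 FPKM, and FOSL1 (FRA1) was next with 81.7 FPKM. FOSL1 alone made up 35.2% to 53.4% of the summed AP-1 FPKM in a library, JUN 12.8% to 18.7%, and FOS, the subunit most tied to acute induction, at most 0.666%. JUND, JUNB and FOSL2 were at 17.1 to 35.0 FPKM, except for a single OE library with 6.23 FPKM of FOSL2. FOSB, EGR2 and EGR3 stayed at or under 0.238 FPKM, and EGR3 had a count of 0 in PC3 control replicate 1 and DU145 control replicate 2.

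**Figure D1:**
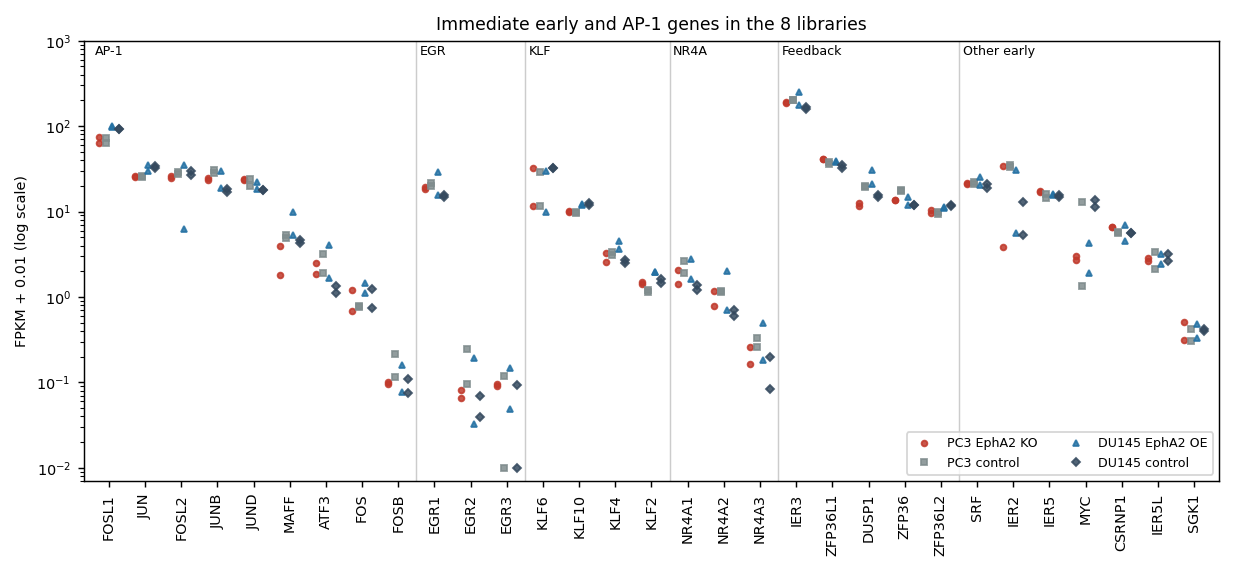
FPKM + 0.01 on a log scale for the 31 members, grouped by class and ordered by mean level, with both libraries of each group as separate points. IER3 and FOSL1 lead, FOSB, EGR2 and EGR3 lie lowest, and KLF6, IER2, MYC and FOSL2 each have libraries of a single group far apart.

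After EphA2 KO in PC3, 0 of 31 members passed edgeR's quasi-likelihood test at an adjusted p under 0.05, against 6 of all genes tested (0.0264%). DESeq2 called 1 member, DUSP1, and 0.836% of all genes. At an unadjusted p under 0.05 edgeR gave 2 members, both lower (DUSP1 and ZFP36), against 6.62% of all genes. The log2 fold change was above 0 for 14 members and below 0 for 17, with a median of -0.07, against -0.00 for all genes, and 0.13 with the controls exchanged. Of all genes, 49.3% lay above 0. Groups of libraries did not overlap for 5 members that were higher and 9 that were lower in the KO, against 21.4% and 21.6% of all genes.

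After EphA2 OE in DU145, 0 of 31 members passed edgeR, against 9 of all genes tested (0.0396%), and DESeq2 again called only DUSP1 among the members and 1.36% of all genes. Here 5 members had an unadjusted p under 0.05 in edgeR, against 9.06% of all genes: DUSP1, KLF4, ATF3 and NR4A1 lay higher and MYC lower. The log2 fold change was above 0 for 22 members and below 0 for 9, with a median of 0.29 against 0.01 for all genes. Of all genes, 51.1% lay above 0. By class, 7 of 9 AP-1 genes, 3 of 3 EGR genes, 3 of 3 NR4A genes and 4 of 5 feedback genes lay above 0, as did 2 of 4 KLF genes and 3 of 7 other early genes. The EGR count includes EGR2 and EGR3, which were at or under 0.238 FPKM in every library. Groups did not overlap for 9 members that were higher and 4 that were lower in the OE, against 19.1% and 18.2% of all genes. The median of the members was 0.07 without OE replicate 2, 0.16 without DU145 control replicate 2 and 0.12 with the controls exchanged. It was 0.16 over the 28 members with a mean CPM of at least 1, and 0.17 with limma on log2(FPKM + 1).

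In the test of the difference between the KO and the OE response (KO minus OE), 0 members passed edgeR, against 7 of all genes (0.0308%), and DESeq2 called DUSP1 alone and 1.8% of all genes. At an unadjusted p under 0.05 there were 6 members, all lower: DUSP1, MAFF, ZFP36, KLF4, JUNB and NR4A1. For all genes that share was 10.1%, with 4.36% higher and 5.78% lower. The KO and the OE response also differ in line, in lentivirus against plasmid and in 72 h against 48 h. These cannot be told apart from loss against gain of EphA2. For 4 members (DUSP1, JUNB, MAFF and IER3) both KO libraries lay below both of their controls and both OE libraries above both of theirs, a pattern seen in 5.44% of all genes, and for 0 members the reverse, seen in 5.09%.

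**Figure D2:**
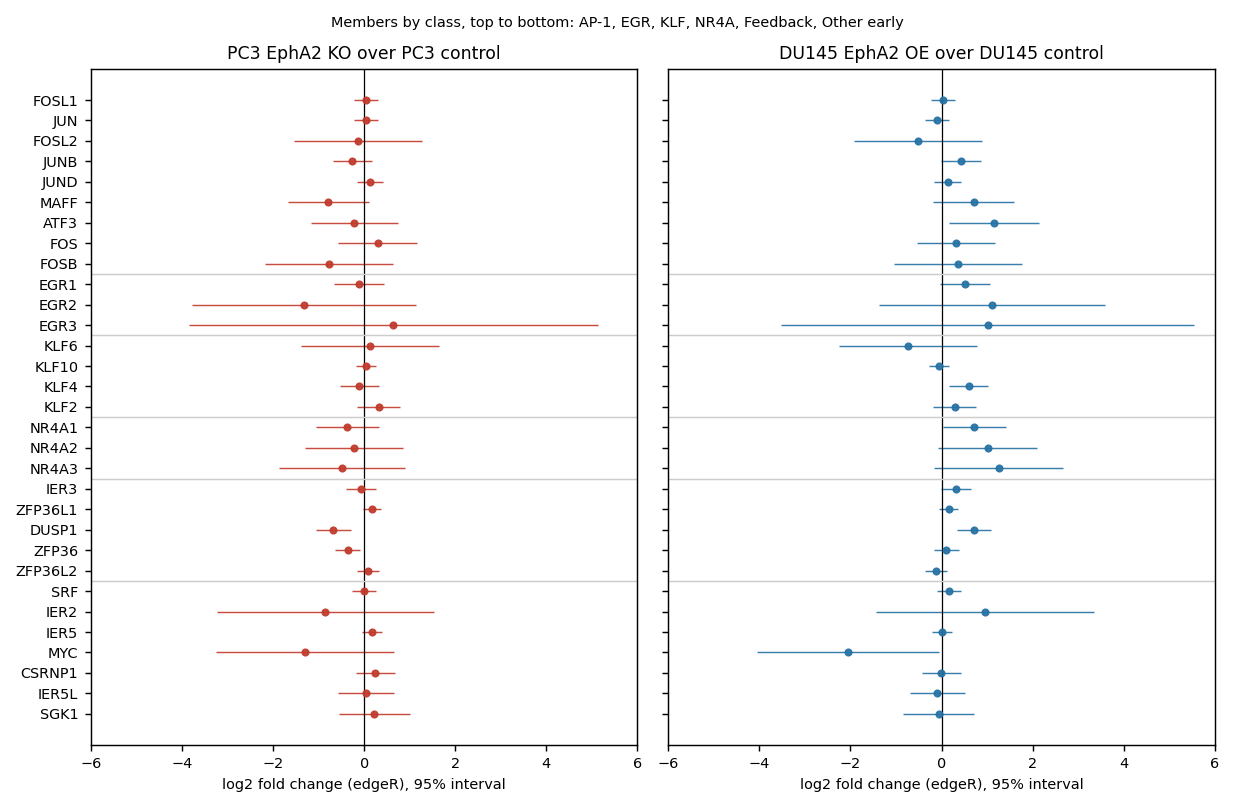
edgeR log2 fold change with its 95% interval for each member, for PC3 EphA2 KO over PC3 control at the left and DU145 EphA2 OE over DU145 control at the right, by class from AP-1 at the top to the other early genes at the bottom. The interval excludes 0 for 2 members at the left (DUSP1 and ZFP36) and 5 at the right (DUSP1, KLF4, ATF3, NR4A1 and MYC), before any adjustment for the number of genes.

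Among the AP-1 genes, MAFF, ATF3 and JUNB had the smallest unadjusted p in the KO, the OE or the difference. MAFF, a small MAF protein without an activation domain that pairs with other leucine zipper factors, had 3.99 and 1.79 FPKM in the KO libraries, against 4.83 and 5.28 FPKM in the PC3 controls. It had 5.33 and 9.83 FPKM in the OE libraries, against 4.64 and 4.32 FPKM in the DU145 controls. Neither pair of groups overlapped, though replicates within KO and within OE stood apart. The log2 fold change was -0.79 ± 0.38 (SE) in the KO and 0.70 ± 0.38 in the OE, and the difference was -1.49 ± 0.54 (edgeR adjusted p = 0.443). MAFF lies across PLA2G6, a gene on the other strand that had a mean count of 229 in the table.

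JUNB, a JUN family member that can restrain growth, had 23.7 and 24.5 FPKM in the KO libraries, against 28.0 and 30.6 FPKM in the PC3 controls. In DU145 it had 19.0 and 30.1 FPKM in the OE libraries, against 18.2 and 17.1 FPKM in the controls. The KO libraries were close together and below their controls, while the OE difference came mostly from replicate 2. The difference of responses was -0.69 ± 0.26 (edgeR adjusted p = 0.457). It was -0.35 without OE replicate 2, -0.96 without OE replicate 1, when it passed (adjusted p = 0.0385), and 0.66, the other way, with the controls exchanged.

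ATF3, a stress-induced member of the ATF family that binds as a homodimer or with JUN proteins, had 1.67 and 3.999 FPKM in the OE libraries, against 1.10 and 1.34 FPKM in the DU145 controls. Both OE libraries were above both controls, with replicate 2 more than replicate 1. The log2 fold change was 1.15 ± 0.42 (edgeR adjusted p = 0.51), and 0.43 without OE replicate 2 or 0.17 with the controls exchanged. In PC3 it had 2.46 and 1.82 FPKM in the KO libraries, against 3.18 and 1.87 FPKM in the controls, and these overlapped. The other AP-1 genes, FOS, FOSB, FOSL1, FOSL2, JUN and JUND, had log2 fold changes of -0.78 to 0.30 in the KO and -0.51 to 0.37 in the OE, with no unadjusted p under 0.05. FOSB overlaps ERCC1, which had a mean count of 5492.

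Of the EGR genes, zinc finger factors induced through SRF, EGR1 (ENSG00000120738, GRCh38 chromosome 5, 138465479 to 138469303, plus strand) was the only member above 1 FPKM. It had 18.1 and 19.3 FPKM in the KO libraries, against 19.9 and 21.3 FPKM in the PC3 controls, and 15.7 and 29.3 FPKM in the OE libraries, against 15.6 and 14.8 FPKM in the DU145 controls. OE replicate 1 was level with the controls, while replicate 2 stood far above them. The OE log2 fold change was 0.51 ± 0.24 (edgeR adjusted p = 0.58), with 0.027 without OE replicate 2, 0.88 without OE replicate 1, when the gene passed (adjusted p = 0.0156), and 0.13 with the controls exchanged. EGR2 and EGR3 also had their higher OE value in replicate 2 (0.186 and 0.137 FPKM, against 0.0226 and 0.0386 FPKM in replicate 1).

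KLF4, a zinc finger factor of epithelial differentiation, had 3.62 and 4.48 FPKM in the OE libraries, against 2.49 and 2.67 FPKM in the DU145 controls. Both OE libraries lay above both controls. The log2 fold change was 0.60 ± 0.18 (edgeR adjusted p = 0.457), or 0.34 with the controls exchanged, and the difference of responses was -0.71, or -0.18 with the controls exchanged. In PC3 it had 2.58 and 3.30 FPKM in the KO libraries, against 3.35 and 3.10 FPKM in the controls, which overlapped. KLF2 had 1.42 and 1.47 FPKM in the KO libraries against 1.14 and 1.21 FPKM in the PC3 controls, and 1.94 and 1.92 FPKM in the OE libraries against 1.62 and 1.44 FPKM in the DU145 controls. It was thus above its controls in both lines, with no unadjusted p under 0.05. KLF10, a TGF-beta early response gene, stayed between 9.72 and 12.6 FPKM in all libraries.

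The NR4A orphan nuclear receptors were low in both lines, with means of 1.87 FPKM for NR4A1, 1.03 FPKM for NR4A2 and 0.237 FPKM for NR4A3. NR4A1 had 2.03 and 1.40 FPKM in the KO libraries, against 2.62 and 1.89 FPKM in the PC3 controls, and these overlapped. In DU145 it had 1.62 and 2.78 FPKM in the OE libraries, against 1.20 and 1.39 FPKM in the controls, without overlap. The OE log2 fold change was 0.71 ± 0.30 (edgeR adjusted p = 0.541) and the difference -1.09 ± 0.42 (adjusted p = 0.459), and with the controls exchanged the values were -0.030 and 0.40. Without OE replicate 2 they were 0.31 and -0.68. All 3 NR4A genes were below 0 in the KO (log2 fold changes of -0.49 to -0.23) and above 0 in the OE (0.71 to 1.26). As with EGR1, OE replicate 2 was the higher library for all 3: NR4A2 had 2.02 FPKM there against 0.685 FPKM in OE replicate 1, and NR4A3 0.482 against 0.174 FPKM.

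The feedback genes held the member with the smallest p in each of these contrasts. DUSP1 (ENSG00000120129, GRCh38 chromosome 5, 172768096 to 172771195, minus strand) had 12.7 and 11.6 FPKM in the KO libraries, against 19.4 and 19.96 FPKM in the PC3 controls. It had 20.9 and 30.6 FPKM in the OE libraries, against 15.5 and 14.9 FPKM in the DU145 controls. Both KO libraries were below, and both OE libraries above, every library of their controls. DUSP1 overlaps 1 other gene of the table, which had a mean count of 2. Fewer cells that express a gene and less RNA per cell cannot be told apart in bulk libraries. The fold was 0.625 in the KO (log2 -0.68 ± 0.16, 95% interval -1.06 to -0.30) and 1.64 in the OE (log2 0.71 ± 0.16, 0.33 to 1.09). Neither passed edgeR (adjusted p = 0.503 and 0.384), whereas DESeq2 gave adjusted p = 0.0427 and 0.02. For the difference, log2 -1.39 ± 0.23, edgeR gave adjusted p = 0.151 and DESeq2 7.13e-05; by p it ranked 61 of 22727 genes in edgeR. Without OE replicate 1 the OE value was 0.94 and passed edgeR (adjusted p = 0.0175), and without OE replicate 2 it was 0.44 (adjusted p = 0.447). With the controls exchanged the values were -0.36 in the KO, 0.39 in the OE and -0.75 for the difference, each of the same sign.

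ZFP36 (tristetraprolin) had 13.6 and 13.5 FPKM in the KO libraries, against 17.3 and 18.0 FPKM in the PC3 controls. In the OE libraries it had 12.03 and 14.7 FPKM, against 12.003 and 12.04 FPKM in the DU145 controls. The KO libraries were nearly equal and below both controls, while in DU145 OE replicate 1 was level with the controls. The KO log2 fold change was -0.37 ± 0.12 (edgeR adjusted p = 0.674) and the difference -0.47 ± 0.17 (adjusted p = 0.443). With the controls exchanged these were 0.14 and 0.53. The paralog ZFP36L1 had 41.0 and 41.6 FPKM in the KO libraries against 36.3 and 38.3 FPKM in the PC3 controls, and 39.1 and 37.7 FPKM in the OE libraries against 34.7 and 32.2 FPKM in the DU145 controls. It was thus above its controls in both lines without an unadjusted p under 0.05. IER3 had 186 and 191 FPKM in the KO libraries, against 202 and 199.9 FPKM in the PC3 controls, and 176 and 248 FPKM in the OE libraries, against 159 and 169 FPKM in the DU145 controls. Its groups did not overlap in either line, and the difference of responses was -0.39 ± 0.20 (edgeR adjusted p = 0.545).

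**Figure D3:**
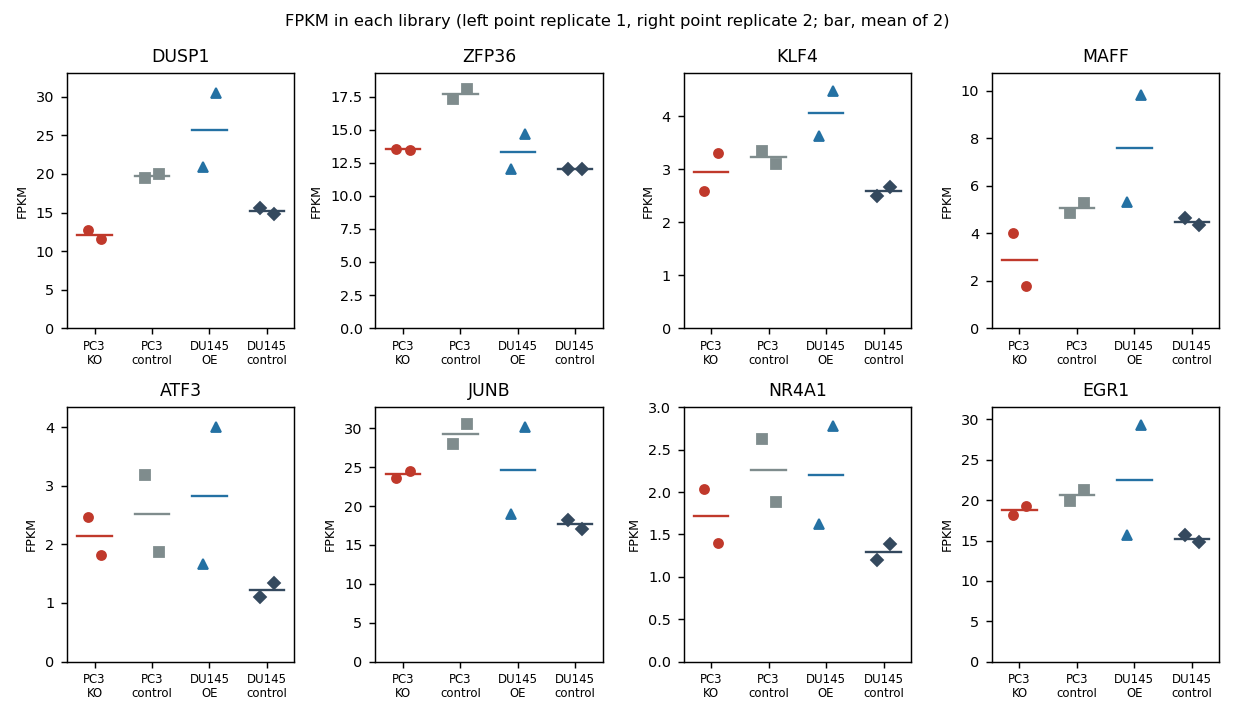
FPKM of 8 members in each library, with replicate 1 as the left point, replicate 2 as the right point and a bar at the mean of 2, on axes that start at 0. DUSP1 lies below its controls in both KO libraries and above them in both OE libraries, whereas EGR1 and JUNB are near the DU145 controls in OE replicate 1 and above them in replicate 2.

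OE replicate 2 was the higher OE library for 20 of 31 members, against 11410 of all 22727 genes tested. OE replicate 2 lay above both DU145 controls for 20 members (64.5%), against 37.9% of all genes. OE replicate 1 lay above both controls for 13 members (41.9%), against 34.7% of all genes. Without OE replicate 1, edgeR called 4 members higher in the OE (JUNB, EGR1, DUSP1 and IER3), and without OE replicate 2 it called 1 member lower (FOSL2). Over all genes the same fits called 376 of 24795 (209 of them higher) and 40 of 24693. In each fit the lone OE library was assumed to vary like the other groups. A set of 10 interferon response genes, taken as a measure of library shift, summed to 105 to 205 FPKM in the OE libraries, against 54.6 to 58.0 FPKM in the DU145 controls. In PC3 it summed to 62.7 to 68.5 FPKM in the KO libraries, against 57.3 to 57.6 FPKM in the controls. Most of the OE sum came from IFI6 (34.4 and 73.5 FPKM) and ISG15 (40.7 and 81.2 FPKM). Others differed less in OE replicate 1: RIGI had 7.15 FPKM there, against 6.44 and 6.61 FPKM in the DU145 controls, and IFIT3 8.47 against 6.78 and 7.66 FPKM. The part of that shift in the values of the early genes was not tested.

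For some members the replicates of a group disagreed, and of these KLF6, IER2, MYC and FOSL2 were singled out after their values were seen. Of the 19 members with a mean over 20 CPM (counts scaled to the library total), 5 had libraries of a single group more than 2-fold apart (26.3%: KLF6, IER2, MYC, FOSL2 and MAFF), against 5.51% of the 8261 genes at that level. KLF6 (ENSG00000067082, GRCh38 chromosome 10, 3775996 to 3785209, minus strand), a zinc finger factor induced early in many cells, had 14026 and 5202 counts in the KO libraries, 12575 and 4878 in the PC3 controls, 12375 and 4177 in the OE libraries, and 13808 and 13954 in the DU145 controls. The 8 libraries thus fell at a higher or a lower level, with both levels inside KO, PC3 control and OE, and KLF6 overlaps no other gene of the table. IER2, a nuclear protein induced by growth factors, had 7404 and 856 counts in the KO libraries, 7245 and 7544 in the PC3 controls, 6363 and 1174 in the OE libraries, and 2763 and 1144 in the DU145 controls. Replicate 1 was the higher in KO, OE and DU145 control, by log2 gaps of 3.14, 2.49 and 1.29, with no such gap in the PC3 controls.

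MYC, the growth regulator induced early by serum, had 993 and 894 counts in the KO libraries, 4188 and 428 in the PC3 controls, 604 and 1332 in the OE libraries, and 3607 and 4368 in the DU145 controls. Both OE libraries lay below both DU145 controls, with 1.92 and 4.24 FPKM against 11.4 and 13.5 FPKM. The OE log2 fold change was -2.06 ± 0.86 (edgeR adjusted p = 0.541), or -1.21 with the controls exchanged. In PC3 the controls themselves differed by a log2 gap of 3.25 and the KO libraries lay between them. FOSL2 (FRA2) had 12678 and 13364 counts in the KO libraries and 14581 and 13728 in the PC3 controls, but 3041 and 17144 in the OE libraries, against 14714 and 13493 in the DU145 controls. Its OE fold change of -0.51 therefore stands for a pair of libraries that lie on opposite sides of the controls. IER5, IER5L, SRF, CSRNP1 and SGK1 varied less, with a highest over lowest FPKM in the 8 libraries of 1.19 for IER5 up to 1.72 for SGK1.

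**Figure D4:**
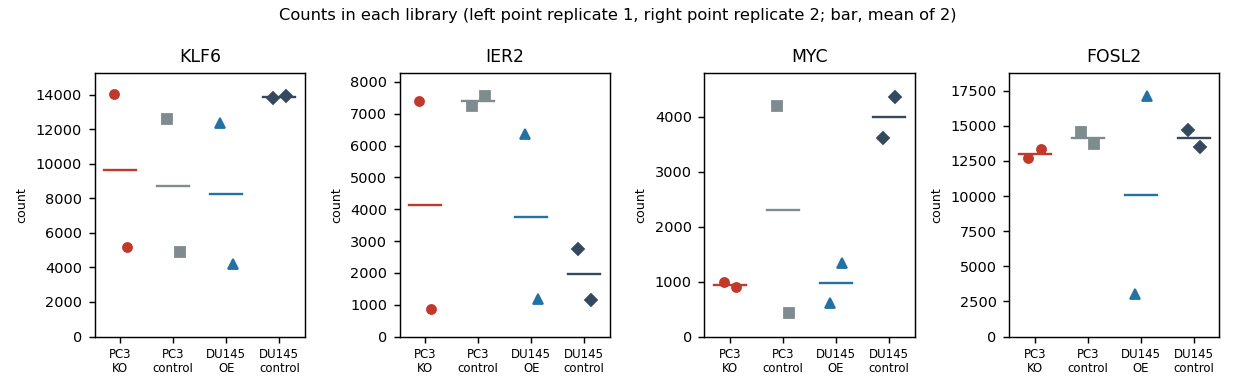
Counts of KLF6, IER2, MYC and FOSL2 in each library, with replicate 1 left, replicate 2 right and a bar at the mean of 2, on axes that start at 0. KLF6 lies at 4177 to 5202 in the lower library of KO, PC3 control and OE and at 12375 to 14026 elsewhere, and the FOSL2 libraries of the OE group lie at 3041 and 17144.

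Between the control groups, PC3 control against DU145 control, 0 members passed edgeR, against 13 of all genes (0.0572%), and DESeq2 called 3 members (FOSL1, KLF10 and ZFP36) and 1.57% of all genes. This contrast uses the same control libraries as the KO and the OE contrasts. The groups also differ in lentivirus against plasmid transfection and in 72 h against 48 h, so line, treatment and time cannot be told apart. At an unadjusted p under 0.05 there were 8 members, 4 higher and 4 lower in PC3 controls, against 9.01% of all genes (4.69% higher and 4.32% lower). Groups did not overlap for 16 members that were higher (22.4% of all genes) and 7 that were lower (21.5%). FOSL1 had 62.8 and 71.7 FPKM in the PC3 controls, against 91.7 and 93.6 FPKM in the DU145 controls (log2 -0.52, edgeR adjusted p = 0.301, DESeq2 0.0166). The KO and OE libraries carried the same order, with 63.0 and 74.1 FPKM in KO and 99.2 and 97.3 FPKM in OE, so that all 4 libraries labelled PC3 lay below all 4 labelled DU145. JUN ran the same way, at 25.3 to 26.0 FPKM in libraries labelled PC3 and 29.5 to 34.6 FPKM in those labelled DU145. FOSL1, JUN and KLF10 were chosen after their values were seen.

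Lists of genes around this module gave a wider view. Of 18 tested AP-1 targets, 16 lay above 0 in the OE, against 51.1% of all genes, with a median log2 fold change of 0.41. At an unadjusted p under 0.05 in edgeR, 8 were higher and 1 lower (5.01% and 4.05% of all genes). EREG, an EGF receptor ligand, had 36.1 and 42.5 FPKM in the OE libraries, against 21.8 and 23.1 FPKM in the DU145 controls, and 30.1 and 29.9 FPKM in the KO libraries, against 38.6 and 37.7 FPKM in the PC3 controls. Neither pair overlapped, and the directions were opposite. Its log2 fold change was 0.76 ± 0.09 in the OE and -0.33 ± 0.09 in the KO, and the difference of -1.09 ± 0.13 had an edgeR adjusted p of 0.0554 and a DESeq2 adjusted p of 1.5e-08. AREG, the related ligand amphiregulin, had 103 and 102 FPKM in the OE libraries, against 60.7 and 64.3 FPKM in the DU145 controls, and 88.9 and 82.4 FPKM in the KO libraries, against 102 and 98.3 FPKM in the PC3 controls. The chemokine CXCL8 had 55.3 and 87.2 FPKM in the OE libraries, against 30.6 and 37.4 FPKM in the DU145 controls, and 40.1 and 41.0 FPKM in the KO libraries, against 57.8 and 52.6 FPKM in the PC3 controls. Both thus showed the EREG order, with a difference of -0.88 (edgeR adjusted p = 0.11) for AREG and -1.44 (0.211) for CXCL8. The opposite directions of EREG, AREG and CXCL8 rest on the control assignment. With the control pairs exchanged, the KO libraries of each gene lay above the DU145 controls, and the OE libraries overlapped the PC3 controls. MMP1, a collagenase, had 39.0 FPKM in OE replicate 1 but 1.37 FPKM in replicate 2, against 1.34 and 1.03 FPKM in the DU145 controls. In PC3 it had 1.62 and 0.996 FPKM in the KO libraries, against 8.02 and 8.02 FPKM in the controls.

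In the KO, 1 of the 18 AP-1 targets was higher and 3 lower at an unadjusted p under 0.05 (3.11% and 3.51% of all genes), namely PLAUR at 0.35 and EREG, CD44 and AREG at -0.33, -0.52 and -0.21. Of 27 further early genes, 11 were higher and 1 lower in the OE at that level, against 5.01% and 4.05% of all genes. In the OE 22 of them lay above 0, against 51.1% of all genes, with a median of 0.34. SIK1, a kinase induced through CREB, had 5.03 and 13.6 FPKM in the OE libraries, against 2.18 and 1.86 FPKM in the DU145 controls (log2 2.15 ± 0.39, edgeR adjusted p = 0.268). GADD45A, a stress gene that acts on MAP kinases, had 15.6 and 26.4 FPKM in the OE libraries, against 9.65 and 10.8 FPKM in the controls. Both genes were again above the controls in each OE library and highest in replicate 2. In PC3 they went opposite ways. SIK1 had 4.65 and 4.11 FPKM in the KO libraries, against 2.92 and 2.67 FPKM in the controls, and so was higher in both lines. GADD45A had 13.0 and 14.1 FPKM in the KO libraries, against 16.6 and 17.5 FPKM in the controls. In the KO 0 of these 27 were higher and 3 lower at that level: ID1 (-0.79), CITED2 (-1.18) and ERRFI1 (-0.34), a feedback inhibitor of EGF receptor.

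Of 18 MAP kinase genes 1 passed edgeR in the KO (0.0264% of all genes), the only 1 with an unadjusted p under 0.05 there. In the OE 0 passed, with 1 higher and 2 lower at an unadjusted p under 0.05 (5.01% and 4.05% of all genes). MAPK14 (p38 alpha) fell to 5.41 and 4.85 FPKM in the KO libraries, against 13.6 and 12.4 FPKM in the PC3 controls (log2 -1.32 ± 0.12, edgeR adjusted p = 0.0311). In DU145 it had 4.17 and 5.06 FPKM in the OE libraries, against 4.38 and 4.18 FPKM in the controls, so the PC3 controls were the pair that stood apart from the other 6 libraries. Set against the DU145 controls, the KO libraries of MAPK14 lay higher. Of 12 AP-1 dimer partners with enough counts, 0 in the KO and 1 in the OE, MAFG at 0.27, had an unadjusted p under 0.05 (6.62% and 9.06% of all genes). Of 12 SRF and CREB regulators, CREB1 lay lower in both lines, at -0.43 in the KO and -0.39 in the OE (edgeR adjusted p = 0.716 and 0.524), and MRTFA was at -0.31 in the OE. The EGR corepressors NAB1 and NAB2 had no unadjusted p under 0.05 in either line.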

How the data were processed

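RNA-seq covered 8 libraries, and the labels place 2 of them in each of the 4 groups. The table the authors deposited holds raw counts and FPKM for each gene and library. The submitters' processing notes name the GRCh38 build and, as tools, edgeR, DESeq2, StringTie 2.1.6, HISAT2 2.2.1 and cutadapt 1.9. What each tool did, which annotation served and whether counting used strand is not given in the sources used here, so reads shared by overlapping genes cannot be assigned with certainty. Column names tell KO and OE libraries apart. For controls, a column named as negative control was taken, by convention, for the PC3 lentivirus control and a column named as vector for the DU145 plasmid control, although the labels also call the lentivirus a vector. The KO, OE and difference results were therefore recomputed with both controls exchanged. In all, 0 columns were left unmapped.

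The deposited counts went into edgeR 4.0.16 under R 4.3.3, with 4 group means over all 8 libraries, TMM normalization, filterByExpr (minimum count 10, minimum total 15) and two-sided quasi-likelihood tests. Benjamini-Hochberg adjustment ran over all 22727 genes tested, with 0.05 as the threshold. Each SE is the size of the log2 fold change divided by the root of its F statistic. DESeq2 1.42.0 was an alternative, as was limma 3.58.1 on log2(FPKM + 1) and log2(FPKM + 0.1). Further alternatives were RLE normalization, no filter, a mean CPM of at least 1, a replicate block, a fit of only the groups compared and each library left out. A permutation test of 2 against 2 cannot go below p = 0.333, so p-values come from models across all genes. The code was checked on simulated counts.

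Whether replicates are separate cultures is not in the labels, and the p-values cover only the variation among these libraries, which may be technical. Counts of replicates differed far beyond sampling noise (chi-square over its degrees of freedom, 38.9 to 84.3). TMM factors ran from 0.973 to 1.03, mitochondrial genes took 7.80% to 8.51% of counts, the median biological coefficient of variation was 0.257, and 3 counts correspond to about 0.05 CPM. Members, classes and lists were chosen with earlier results of these data known. Members with an unadjusted p under 0.05 in the knockout, overexpression or difference contrast, and the member of smallest p in each class, are given in full; from the further lists up to 6 genes by smallest p may be named. Promoters are RefSeq sequences on GRCh38.p14, matched by symbol.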

Additional observations from a re-analysis of the deposited data

Results flagged for a closer look

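For 4 members both KO libraries lay below both PC3 controls while both OE libraries lay above both DU145 controls, so that the responses ran in opposite directions. Line, treatment and time also differ between the KO and the OE response and cannot be told apart from the change in EphA2. The difference of the log2 fold changes (KO response minus OE response) was -1.39 for DUSP1, -1.49 for MAFF, -0.69 for JUNB and -0.39 for IER3. The difference itself was tested in edgeR and passed for none of the 4 (adjusted p = 0.151, 0.443, 0.457 and 0.545, in that order); DESeq2 called it for DUSP1 alone. The same pattern was seen in 5.44% of all genes tested, and the reverse pattern, in 0 members, in 5.09%.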

How the results depend on the processing

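Over the named members, 232 values were recomputed under the alternatives: 7 passed where the main test did not and 5 changed sign. None of the named members passed the main test, so none could lose a call, and the 220 others that stayed uncalled with the same sign do not show stability. All 5 came with the controls exchanged, which the basal keratins go against: the difference was then 0.53 for ZFP36, 0.66 for JUNB and 0.40 for NR4A1, the KO value 0.14 for ZFP36 and the OE value -0.030 for NR4A1. The KO median of the members was then 0.13. Counts of genes called moved more (main 6 in the KO, 9 in the OE, 7 for the difference and 13 between controls). DESeq2 called 190, 309, 410 and 357 genes in that order, and 1, 1, 1 and 3 members against 0. Same-numbered libraries did not deviate together (correlations of -0.0165 in PC3 and -0.0231 in DU145). These values give no sign of pairing by number, but cannot show that same-numbered samples were handled apart. With the replicate block the counts of genes called were 0, 3, 0 and 0. With the controls exchanged they were 13 in the KO and 16 for the difference. No filter gave 4 in the OE, and a mean CPM of at least 1 gave 19 for the difference. A fit of only the groups compared gave 0 in the OE and 20 between controls. limma on log2(FPKM + 1) gave 23 between controls, and on log2(FPKM + 0.1) 12 in the KO and 25 between controls. Leaving out each library gave 6 to 27 genes in the KO, 3 to 376 in the OE, 11 to 323 for the difference and 4 to 114 between controls, and 0 to 4 members in the OE and 0 to 3 for the difference. The cause of these moves was not tested. The exchange only turns the sign between controls, and a fit of only the groups compared gives no difference, so these were not run. With 2 libraries a group, genes whose replicates differ as KLF6, IER2 and MYC do have wide intervals, and values under 1 FPKM rest on few counts.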
